A study of Rattus norvegicus with 12 samples.

Results

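The outer medulla of 3 congestive and 3 control rat kidneys was compared across all named genes, which took 6 of the 12 arrays of the series. The members were chosen by the titles of the arrays, which name the region, the group and a number from 1 to 3, and 1 control title carries a spelling slip. All rats were male Sprague-Dawley, 7 to 9 weeks old and 250 to 350 g in weight. In every animal the inferior vena cava was tied off between the renal veins, so that the left kidney drained against a raised venous pressure, and tissue was taken on day 3. The control is the right kidney of ligated rats, which shared the operation, the anesthesia and any whole-body response. No array came from a sham-operated rat, and the methods describe the division of each kidney into cortex and medulla, where the labels say outer medulla. Each congestive kidney was set against the control kidney of the same number, and the numbers 1 to 3 below are these pairs.

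The outer medulla holds the straight last part of the proximal tubule, the medullary thick ascending limb, thin limbs and collecting ducts, with bundles of vasa recta between them. The thick ascending limb reabsorbs sodium chloride without water and so builds the salt gradient on which urine concentration rests. This work uses much oxygen in a region that is poorly supplied with it, and the veins that leave the medulla are thin walled, so the region is known as a site of early tubular injury. Its tubule cells depend on mitochondria, and its vessels are wrapped by pericytes, contractile cells that can turn into matrix-producing myofibroblasts.

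The values are expression levels, 1 per gene, which the depositors had already put on a common scale across arrays. They were read as log2 from their range of 1.23 to 13.5, since the sources used here do not give the base, and on that scale a difference of 1 is a doubling. Medians of the 6 arrays lay between 6.03 and 6.09. Pearson's r across rows was 0.988 to 0.991 between arrays of the same group and 0.976 to 0.985 between control and congestive arrays. Markers of the region were looked up first. In control kidneys the level in outer medulla was above that in cortex by 2.13 for Slc12a1, the salt carrier of the thick ascending limb, by 4.49 for Slc7a13 of the proximal straight tubule and by 2.50 for Slc14a1, the urea transporter of descending vasa recta. Slc12a3 of the distal convoluted tubule and Slc5a2 of the early proximal tubule, both cortical, were lower there by 3.65 and 3.01. These cortical genes differed between the congestive arrays, since Slc5a2 read 8.30, 8.40 and 8.36 in the control kidneys and 7.91, 7.06 and 8.76 in the congestive kidneys and Slc12a3 7.38, 8.09 and 8.27 in the control kidneys and 7.26, 6.37 and 8.60 in the congestive kidneys. Both were lowest in congestive kidney 2 and highest in congestive kidney 3, and these values are set beside the proximal tubule results.

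Of 18166 genes, 2150 (11.8%) were higher and 2057 (11.3%) lower in the congestive kidneys at an adjusted p under 0.05 (limma, Benjamini-Hochberg over all genes), which is 23.2% in either direction. The counts of rises and falls in the gene lists below are to be read against these shares. Rises were the larger changes. A change of at least 1 on the log2 scale was seen in 409 genes that rose and 164 that fell, and one of at least 2 in 39 and 5. The median over all genes was -0.01. Genes that fell were mostly bright ones: of the 6055 brightest genes 1321 fell and 953 rose, against 602 and 1014 of the 6055 genes of middle brightness and 134 and 183 of the 6056 dimmest. All 2150 rises and 2056 of the 2057 falls had the same sign in the 3 pairs, against 51.7% of all genes. The calls were made on these same pairs, so this agreement is no independent support for them. Without pair 1 there were 2421 calls and without pair 2 there were 2267, against 3938 without pair 3, and no call changed its sign in any of these fits.

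**Figure D1:**
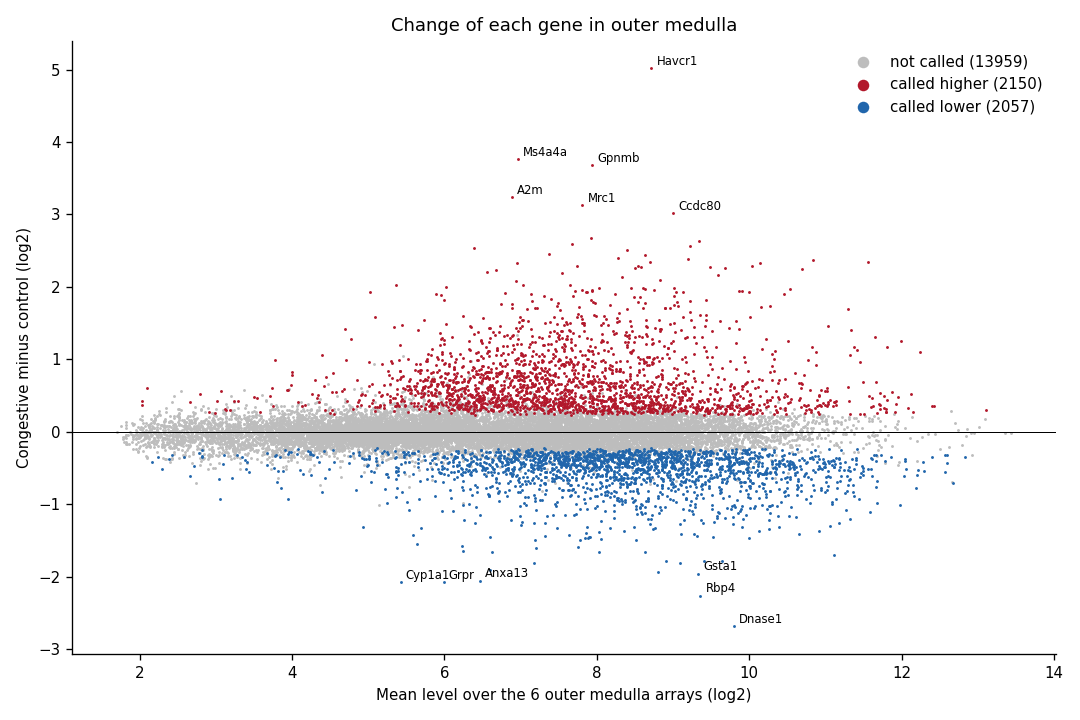
Change in outer medulla, congestive minus control, on the log2 scale (vertical axis) against the mean level over the 6 arrays (horizontal axis, log2), 1 point a gene. Genes called higher and lower are coloured, the grey points passed no threshold, and the largest rises and falls are named; the 39 rises of 2 or more stand above 5 falls of that size.

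The gene with the largest rise was Havcr1, which encodes kidney injury molecule 1, a receptor that injured proximal tubule cells put on their surface. It read 5.61, 5.77 and 7.24 in the control kidneys and 10.35, 11.74 and 11.59 in the congestive kidneys. The lowest congestive kidney lay above the highest control kidney, and the rise was 32.3-fold (5.02 ± 0.29 on the log2 scale, SE, adjusted p = 3.4e-05). Genes of macrophages took 3 of the next 4 places. Ms4a4a, a membrane protein of these cells, read 4.78, 5.60 and 4.85 in the control kidneys and 8.86, 9.17 and 8.50 in the congestive kidneys, a rise of 3.77 ± 0.14. Gpnmb, a glycoprotein of their lysosomes, read 6.09, 6.31 and 5.90 in control and 10.12, 10.59 and 8.64 in congestive outer medulla, a rise of 3.68 ± 0.26. Mrc1, the mannose receptor, read 6.22, 6.38 and 6.15 in control and 9.39, 9.58 and 9.16 in congestive outer medulla, a rise of 3.13 ± 0.10. Control and congestive kidneys were far apart in each of the 3, and the congestive kidney of pair 3 was the lowest of its group in all of them. Genes of the extracellular matrix followed. Ccdc80, a secreted matrix protein, read 7.50, 7.73 and 7.24 in the control kidneys and 10.61, 11.03 and 9.88 in the congestive kidneys. Lox, the enzyme that cross-links collagen, read 6.39, 7.18 and 6.20 in the control kidneys and 9.58, 9.39 and 8.79 in the congestive kidneys, and Col1a1, the main chain of collagen I, read 7.82, 8.53 and 7.73 in control and 10.69, 11.14 and 10.14 in congestive outer medulla. The groups were apart in each, with rises of 3.02, 2.67 and 2.63. Mmp2, a gelatinase that cuts matrix, rose by 2.56, and A2m, which encodes a broad inhibitor of proteases, by 3.24.

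The 12 largest rises also held 3 genes of other kinds. Syt10, a calcium sensor of vesicle release, read 4.97, 5.45 and 4.93 in the control kidneys and 7.22, 8.41 and 7.32 in the congestive kidneys, a rise of 2.54 ± 0.13 (adjusted p = 2.6e-05). Gabrp, a subunit of the GABA-A receptor, read 6.69, 6.29 and 6.17 in the control kidneys and 9.28, 8.90 and 8.74 in the congestive kidneys, a rise of 2.59 ± 0.14. Apobec1, the cytidine deaminase that edits the mRNA of apolipoprotein B, read 7.58, 7.43 and 6.40 in control and 10.06, 9.67 and 9.19 in congestive outer medulla, a rise of 2.51 ± 0.19. In all 3 the groups stood apart, although control kidney 3 was lower in Apobec1 than the other controls. All 12 rises kept their call when any 1 pair was left out. They were picked as the largest in these same pairs, so this is no independent support.

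**Figure D2:**
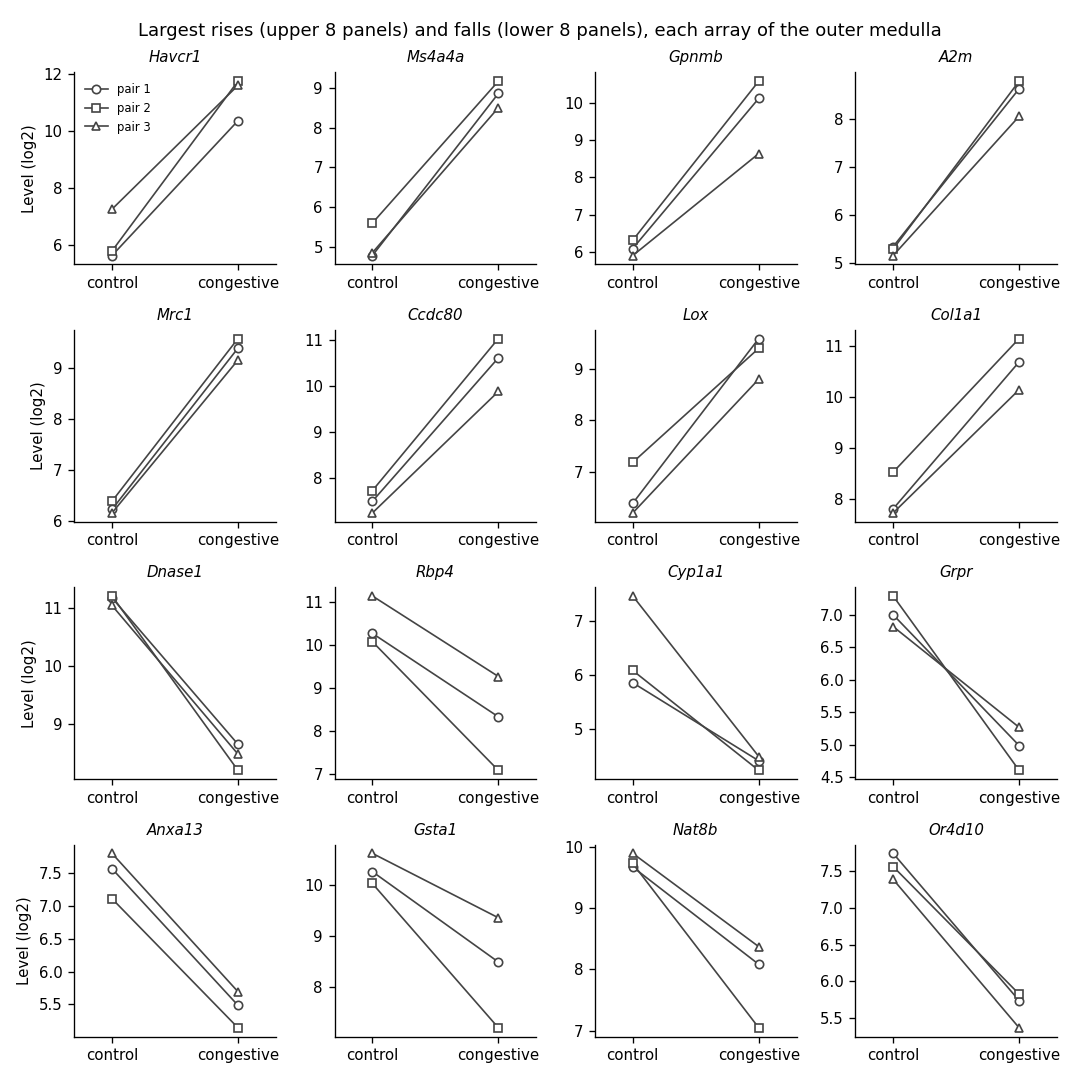
Log2 level (vertical axis) of 8 of the largest rises and 8 of the largest falls in each outer medulla array, with a line joining the control and the congestive kidney of a pair. The genes were chosen among called genes with the same sign in all 3 pairs, so every line runs the same way in its panel. In each panel the 3 congestive kidneys lie outside the range of the 3 control kidneys. Havcr1 climbs from 5.61 to 7.24 up to 10.35 to 11.74.

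The largest fall was that of Dnase1, the secreted nuclease that clears free DNA, which read 11.17, 11.20 and 11.04 in the control kidneys and 8.66, 8.21 and 8.49 in the congestive kidneys. The congestive kidneys lay below all control kidneys, and the fall was by 2.69 ± 0.28, or 6.45-fold (adjusted p = 0.00042). Rbp4, the plasma carrier of retinol, read 10.27, 10.08 and 11.14 in the control kidneys and 8.33, 7.09 and 9.27 in the congestive kidneys, and Gc, the vitamin D-binding protein, read 10.43, 9.86 and 10.62 in control and 8.87, 7.62 and 9.06 in congestive outer medulla. They fell by 2.27 and 1.79 and both were lowest in congestive kidney 2. Cyp1a1, an oxidase of aromatic compounds under control of the aryl hydrocarbon receptor, read 5.86, 6.09 and 7.46 in the control kidneys and 4.42, 4.24 and 4.50 in the congestive kidneys, where the congestive kidneys were even and control kidney 3 was high. Slc22a13, an organic anion transporter, read 9.82, 9.99 and 10.16 in control and 8.03, 7.99 and 8.53 in congestive outer medulla, a fall by 1.81 ± 0.12 (adjusted p = 5.1e-05). Gsta1, a glutathione transferase, fell by 1.96, and Nat8b, an acetyltransferase, by 1.93. Both belong to families of like sequence, so their probes may bind RNA of several copies. The last of the 12 were Grpr, the receptor of gastrin-releasing peptide (by 2.08), Anxa13, an annexin of epithelial membranes (by 2.06), Or4d10, an olfactory receptor of a large family (by 1.92), Pkd2l2, a channel of the polycystin family (by 1.81), and Azgp1, a secreted zinc-binding glycoprotein (by 1.79). The control and congestive arrays did not overlap in any of the 12. Over all genes this held for 17.5% in this direction, for 18.4% in the other and for 36.0% in either. All 12 kept their call without any 1 pair. They were picked as the largest falls in these same arrays, so neither result is independent support.

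In the thick ascending limb many genes fell, and the salt carrier itself was lower by a small amount that missed the threshold. Of 23 measured genes of this segment 14 fell and 0 rose, with a median of -0.39. Slc12a1 read 12.62, 12.65 and 12.61 in the control kidneys and 12.38, 12.54 and 12.23 in the congestive kidneys. All 3 congestive kidneys were below the controls, yet the difference of -0.24 ± 0.08 missed the threshold (adjusted p = 0.062). Over the alternative limma fits its adjusted p ran from 0.012 to 0.22. Umod, uromodulin, the most abundant protein of normal urine, read 13.02, 13.04 and 13.02 in the control kidneys and 12.46, 12.24 and 12.26 in the congestive kidneys, an even fall by 0.71 ± 0.11 (adjusted p = 0.0025). Egf, the growth factor that this limb secretes into urine, read 11.93, 11.94 and 11.56 in control and 11.13, 10.41 and 10.66 in congestive outer medulla and fell by 1.07 ± 0.20, with congestive kidney 2 lowest. Tmem207, a membrane protein of the limb, fell by 1.32, the most of the list. Kcnt1, a potassium channel, fell by 0.93, and Kcnj1, the ROMK channel that returns potassium to the lumen, by 0.56. Esrrb, an orphan nuclear receptor of this segment, read 7.70, 7.77 and 7.27 in the control kidneys and 6.55, 6.64 and 6.51 in the congestive kidneys and fell by 1.01 ± 0.13.

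Proximal straight tubule genes were lower as a group, by an amount that differed between the pairs. Of 36 measured, 20 fell and 0 rose, and the median was -0.55, with -0.47 in pair 1, -0.90 in pair 2 and -0.14 in pair 3. Agmat, an enzyme of agmatine breakdown, read 10.19, 9.96 and 10.28 in the control kidneys and 9.19, 8.31 and 9.61 in the congestive kidneys, a fall by 1.11 ± 0.17 (adjusted p = 0.0025). Slc22a7, an organic anion transporter of this segment in rat, read 7.76, 7.92 and 7.49 in control and 6.98, 6.53 and 6.84 in congestive outer medulla, a fall by 0.94 ± 0.14. Slc7a13, the most strongly enriched marker of the segment, read 13.01, 12.99 and 13.04 in the control kidneys and 12.40, 12.06 and 12.50 in the congestive kidneys. Here the groups did not overlap, but the difference of -0.69 did not pass (adjusted p = 0.18). The model takes 1 spread from both regions, and in control cortex this gene had an SD of 2.01 (n = 3) against 0.026 in control outer medulla. Over the alternative limma fits its adjusted p ran from 0.0075 to 0.60 and its change from -0.76 to -0.57, so the call depended on the fit. Slc22a6, the organic anion transporter 1, read 10.88, 10.89 and 10.86 in control and 9.97, 8.97 and 10.60 in congestive outer medulla, with congestive kidney 2 lowest and congestive kidney 3 close to the controls. Its fall by 1.03 lost the threshold without pair 1 (adjusted p = 0.078) and without pair 2 (adjusted p = 0.061). The cortical markers ran the same way, with Slc5a12 at 9.03, 9.07 and 8.69 in the control kidneys and 8.30, 7.03 and 9.07 in the congestive kidneys. The order of the congestive kidneys was that of Slc5a2 and Slc12a3 above, and the part of cortical tissue in these results was not tested. Without pair 1 the count of falls was 8, without pair 2 it was 7, and in a fit of the outer medulla arrays alone it was 13.

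The list also holds genes of the cortical proximal tubule. Slc22a6 is known from the convoluted part as well, and its level in control outer medulla minus that in control cortex was -1.34. Of the 36 genes 13 were higher in control outer medulla than in control cortex with no overlap of the arrays, and of these 10 fell, with a median change of -0.60 and pair medians of -0.54, -0.88 and -0.46. Another 20 were lower in control outer medulla, and of these 9 fell, with a median of -0.56 and pair medians of -0.49, -1.02 and -0.06. In pair 3 the median was below 0 for the former and near 0 for the latter, a description with no test. Slc5a1, the glucose carrier of the straight part, read 8.62, 8.75 and 8.49 in the control kidneys and 8.22, 8.03 and 8.69 in the congestive kidneys, and its difference of -0.30 did not pass (adjusted p = 0.23), with groups that overlapped. Of 8 genes of the thin limbs 5 fell and 1 rose, with a median of -0.42. Aqp1, the water channel of the descending thin limb and the proximal tubule, read 11.75, 11.86 and 11.67 in the control kidneys and 11.29, 11.01 and 11.36 in the congestive kidneys, a fall by 0.54 ± 0.10. The falls were 3 without pair 2, 3 without pair 3 and 3 with no pair block.

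Transporters and transferases that handle drugs and waste fell more often than they rose. Of 31 organic ion and drug transporters 16 fell and 3 rose, with pair medians of -0.54, -0.83 and -0.10. The order of the pairs was that of the cortical markers Slc5a2, Slc12a3 and Slc5a12. The 14 genes higher in control outer medulla than in control cortex had 9 falls and pair medians of -0.77, -1.16 and -0.52. The 9 genes lower there had 3 falls and pair medians of -0.54, -0.84 and -0.0007. The part of cortical tissue in these results was not tested. Slco4c1, a basolateral carrier of digoxin and uremic solutes, read 10.01, 9.92 and 9.996 in the control kidneys and 8.86, 8.09 and 9.31 in the congestive kidneys, a fall by 1.22 ± 0.20. Slc22a2, the organic cation transporter 2, fell by 1.10, and Abcb1a, the P-glycoprotein pump, by 1.07. Slco2b1 went the other way and rose by 0.95. Among 41 glutathione, glucuronide and sulfate transferases 17 fell and 1 rose, with Ugt2b35 at 9.08, 9.26 and 9.45 in the control kidneys and 7.37, 7.09 and 8.85 in the congestive kidneys, a fall by 1.49. Of 69 cytochromes P450 12 fell (17.4%, against 11.3% of all genes) and 3 rose (4.35%, against 11.8%), with a median of -0.08. Cyp2c11, a male-specific steroid hydroxylase of rat liver, fell by 1.65, while Cyp7b1, an oxysterol hydroxylase, rose by 1.29 and Cyp1b1 by 0.97. Without pair 2 the falls were 10 transporters, 10 transferases and 7 cytochromes.

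Collecting duct genes were lower in both of its cell types. Of 22 principal cell genes 10 fell and 2 rose, and of 23 intercalated cell genes 13 fell and 1 rose, with medians of -0.26 and -0.41. Avpr2, the V2 receptor through which vasopressin opens the duct to water, read 7.69, 7.82 and 7.42 in the control kidneys and 6.98, 6.72 and 6.49 in the congestive kidneys, a fall by 0.91 ± 0.14 (adjusted p = 0.0029). Aqp3, a basolateral water channel, read 10.10, 10.38 and 9.81 in control and 9.63, 9.69 and 9.17 in congestive outer medulla and fell by 0.60 ± 0.09. Aqp2, the water channel that vasopressin inserts, read 11.22, 11.21 and 10.62 in the control kidneys and 10.94, 10.82 and 10.18 in the congestive kidneys, where congestive kidneys 1 and 2 lay within the range of the controls. Its fall by 0.38 ± 0.11 was close to the threshold (adjusted p = 0.045) and was lost without each pair (adjusted p = 0.11, 0.17 and 0.14) and with no pair block (adjusted p = 0.24). Fxyd4, a regulator of the sodium pump, fell by 1.25, and Kcnj10, a basolateral potassium channel, by 1.15.

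In intercalated cells, which secrete acid, Slc26a7, a basolateral anion exchanger of the outer medulla, read 8.91, 8.78 and 8.20 in the control kidneys and 7.29, 7.31 and 6.86 in the congestive kidneys. It fell by 1.47 ± 0.08, or 2.78-fold, in pairs that differed in level but not in direction. Slc4a1, the anion exchanger that returns bicarbonate to blood, read 10.90, 10.72 and 10.71 in control and 9.85, 9.81 and 9.58 in congestive outer medulla, a fall by 1.03 ± 0.08 (adjusted p = 0.0001). The ammonia channel gene Rhcg fell by 0.78, Oxgr1, the receptor of oxoglutarate, by 0.80, and Atp6v1g3, a subunit of the proton pump, by 0.63. Foxi1, a transcription factor these cells need, read 8.64, 8.39 and 8.27 in the control kidneys and 8.23, 8.14 and 8.23 in the congestive kidneys, and its difference of -0.23 did not pass (adjusted p = 0.13). In such bulk tissue fewer cells of a type and less RNA per cell cannot be told apart.

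Genes of osmolyte and urea handling gave no common direction. Of 16 measured 6 fell (37.5%, against 11.3% of all genes) and 2 rose (12.5%, against 11.8%). Akr1b1, aldose reductase, which makes sorbitol, read 8.09, 8.02 and 7.63 in the control kidneys and 8.77, 8.88 and 8.11 in the congestive kidneys and rose by 0.68 ± 0.12, while Slc14a1 of vasa recta differed by 0.43 with groups that overlapped (adjusted p = 0.09). Arg2, the mitochondrial arginase of the straight tubule, fell by 1.04, and Ass1, which makes argininosuccinate for arginine synthesis, by 1.01. Without pair 1 there were 3 falls, and without pair 2 there were 2. Among 38 transcription factors of the nephron 15 fell (39.5%) and 4 rose (10.5%). Ppara, the receptor that drives fatty acid oxidation, read 8.77, 8.72 and 8.95 in the control kidneys and 7.78, 7.53 and 8.26 in the congestive kidneys, a fall by 0.96 ± 0.10 (adjusted p = 0.00049). Klf15 fell by 0.95 and Hnf4g, a nuclear receptor of the proximal tubule, by 0.91. Maf read 8.65, 8.89 and 8.54 in control and 9.70, 9.57 and 9.71 in congestive outer medulla and rose by 0.97 ± 0.10. Without pair 1 the falls were 9, and the rises were 2 without each pair.

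**Figure D3:**
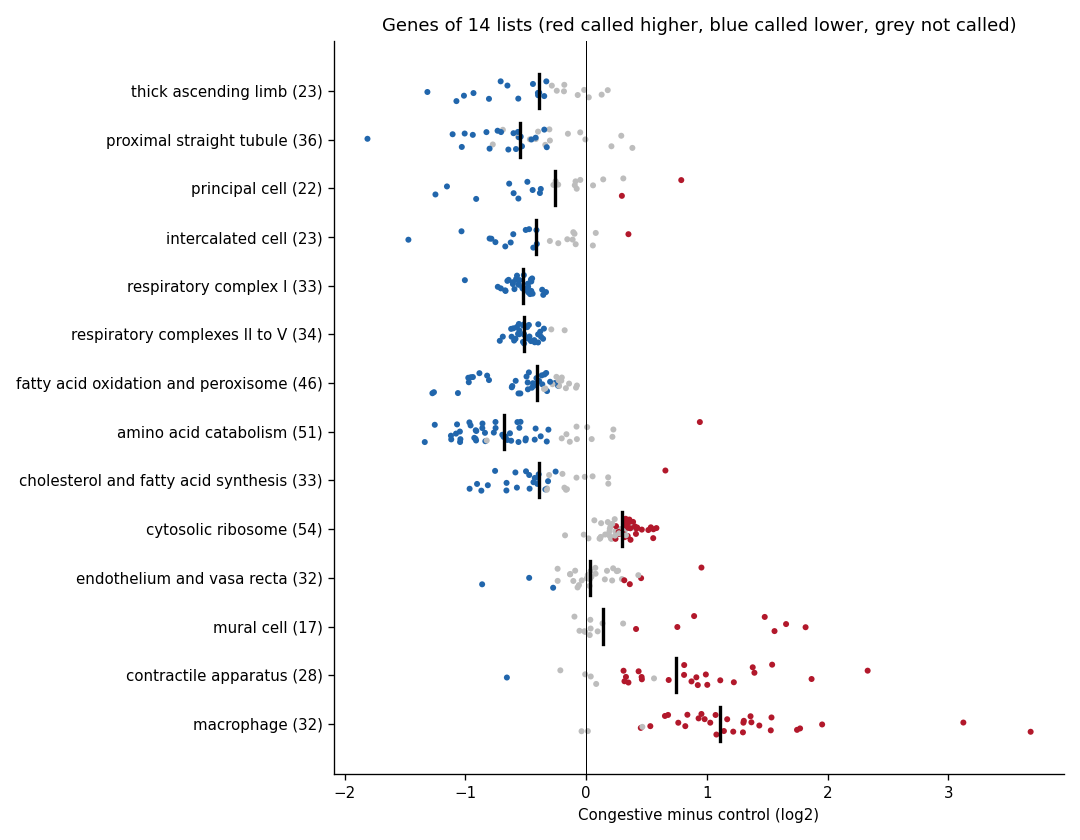
Change of each measured gene (points, congestive minus control, log2, horizontal axis) in 14 gene lists of nephron segments, metabolism and stroma, with the median of the list as a bar. All 33 complex I genes lie left of 0, and most of the contractile and macrophage genes lie right of it.

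Genes of mitochondrial respiration fell almost throughout. All 33 measured subunits of complex I, the entry point of electrons from NADH, fell, and so did 32 of 34 genes of complexes II to V, with 0 rises in either list. The medians were -0.53 and -0.51, and in the 3 pairs they were -0.56, -0.63 and -0.41 for complex I. In complexes II to V they were -0.47, -0.62 and -0.35, so in both lists pair 2 had the largest fall and pair 3 the smallest. Ndufs1, the largest subunit of the complex, read 10.62, 10.74 and 10.59 in the control kidneys and 10.05, 9.97 and 10.17 in the congestive kidneys, a fall by 0.58 ± 0.10 (adjusted p = 0.0039). Ndufb8 read 9.23, 9.18 and 9.27 in control and 8.32, 8.47 and 8.70 in congestive outer medulla and fell by 0.73 ± 0.10. The control and congestive arrays did not overlap in any of the 33 genes, and over all genes 17.5% were apart in this direction. Ndufv3 fell by 1.005, the most of the complex, though its dimmer row on the array had a change of -0.207. Atp5me of the ATP synthase fell by 0.72 and Sdha, the catalytic subunit of succinate dehydrogenase, by 0.52. Without pair 1 there were 25 falls in complex I and without pair 2 there were 24. The mitochondrial ribosome was lower too, in 39 of 70 genes with a median of -0.30, led by Mrpl16 at 9.52, 9.47 and 9.51 in the control kidneys and 8.73, 8.72 and 9.01 in the congestive kidneys. It had 9 falls without pair 1 and 9 without pair 2.

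The 250 bases before the start sites of these genes were searched for the site of NRF1, a factor known to bind promoters of respiratory genes, on either strand. The site is GC-rich and reads nearly the same on both. It was in 6 of 31 complex I genes with a RefSeq promoter entry (19.4%) and in 4 of 28 genes of complexes II to V (14.3%). In the mitochondrial ribosome it was in 7 of 57 (12.3%). The share was 4.30% of all 27457 genes with an entry, a set that also holds genes not measured here. Ndufs6, named here for its sequence, shows a match (capitals, the reverse complement) before its start, at chr1:31797150-31797399 of GRCr8, plus strand:
Ndufs6: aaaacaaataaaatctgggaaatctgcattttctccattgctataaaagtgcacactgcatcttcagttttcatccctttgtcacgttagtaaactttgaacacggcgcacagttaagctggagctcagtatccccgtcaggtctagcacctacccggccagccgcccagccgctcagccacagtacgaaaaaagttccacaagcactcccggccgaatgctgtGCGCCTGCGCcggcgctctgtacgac
It read 7.74, 7.61 and 7.95 in the control kidneys and 7.01, 7.000 and 7.47 in the congestive kidneys, a fall by 0.61 ± 0.08. A match is a run of letters, not a bound site.

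Pathways that feed the respiratory chain were lower in the same kidneys. Of 27 genes of the citric acid cycle and of pyruvate entry 21 fell, of 46 genes of fatty acid oxidation and peroxisomes 33 fell, and in neither did a gene rise. Mpc1, the carrier of pyruvate into mitochondria, read 8.99, 9.06 and 8.93 in the control kidneys and 8.37, 8.18 and 8.35 in the congestive kidneys, a fall by 0.69 ± 0.08. Bdh1, the enzyme of ketone body use, read 9.99, 10.18 and 9.90 in control and 8.72, 8.84 and 8.73 in congestive outer medulla, an even fall by 1.26 ± 0.08 (adjusted p = 4.1e-05). Ehhadh, the bifunctional enzyme of peroxisomes, read 10.40, 10.31 and 10.58 in control and 9.18, 8.57 and 9.73 in congestive outer medulla and fell by 1.27 ± 0.15, with congestive kidney 2 lowest. Cpt1a, the gate of fatty acids into mitochondria, read 9.97, 10.07 and 10.10 in the control kidneys and 9.78, 9.86 and 9.84 in the congestive kidneys, and its difference of -0.22 missed the threshold (adjusted p = 0.066). Fatty acid oxidation had 20 falls without pair 1 and 17 without pair 2. Its pair medians were -0.37, -0.55 and -0.27, and those of the citric acid cycle list were -0.47, -0.61 and -0.29. Enzymes of amino acid breakdown fell in 40 of 51 and had the lowest median of these lists, -0.68. By pair it was -0.65, -1.03 and -0.44. Slc5a2, Slc12a3 and Slc5a12 also followed the pair order of these 3 lists. All 16 amino acid genes higher in control outer medulla than in control cortex fell, with pair medians of -0.82, -1.11 and -0.63. Of 19 genes lower there 12 fell, with pair medians of -0.53, -0.90 and -0.14. In the other 16 the regions overlapped, and of these 12 fell and 1 rose. The part of cortical tissue in these lists was not tested. Dmgdh, which oxidizes dimethylglycine, fell by 1.34, and Cdo1, which oxidizes cysteine, by 1.12. Oat, ornithine aminotransferase, read 11.78, 11.82 and 11.83 in the control kidneys and 10.61, 10.18 and 10.88 in the congestive kidneys, a fall by 1.25 ± 0.13. Bcat1, the cytosolic branched-chain aminotransferase, was the exception of the 51 and rose by 0.94. Glycolysis and gluconeogenesis were mixed, with 8 falls (30.8%, against 11.3% of all genes) and 4 rises (15.4%, against 11.8%) among 26 genes. Hk2, a hexokinase, read 6.82, 6.68 and 6.66 in control and 7.41, 7.45 and 7.17 in congestive outer medulla and rose by 0.62. This list had 1 fall without pair 1 and 2 without pair 2.

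Genes of lipid synthesis fell and those of cytosolic ribosomes rose. Of 33 genes of cholesterol and fatty acid synthesis 20 fell and 1 rose, with a median of -0.39. Tm7sf2, a sterol reductase, read 9.03, 8.86 and 8.98 in the control kidneys and 7.92, 7.85 and 8.19 in the congestive kidneys, a fall by 0.97 ± 0.09 (adjusted p = 0.00029). Idi1, which makes an isoprene unit for sterols, fell by 0.90, and Scd2, a fatty acid desaturase, rose by 0.66. There were 8 falls without pair 1 and 12 without pair 2. Of 54 cytosolic ribosomal proteins 29 rose and 0 fell, by a median of 0.29. Rpl3 read 10.53, 10.65 and 10.78 in control and 11.16, 11.23 and 11.31 in congestive outer medulla and rose by 0.58 ± 0.08, the most of the list. The rises were small, with 14 called without pair 1 and 12 without pair 2. Many of these genes have processed copies in the genome whose transcripts probes may share.

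Genes of contractile and matrix-producing cells rose in large numbers, while 2 widely used pericyte markers were not called. Of 28 genes of the contractile apparatus 22 rose and 1 fell, with a median of 0.75. Tagln, transgelin, an actin-binding protein of smooth muscle, read 8.59, 9.25 and 9.09 in the control kidneys and 11.39, 11.55 and 10.98 in the congestive kidneys, a rise by 2.33 ± 0.15, or 5.04-fold (adjusted p = 4.8e-05). Myl9, the regulatory light chain of smooth muscle myosin, read 8.09, 8.17 and 7.98 in control and 10.19, 10.15 and 9.51 in congestive outer medulla, a rise by 1.87, and Flna, filamin A, read 8.34, 8.63 and 8.43 in control and 9.87, 10.38 and 9.79 in congestive outer medulla, a rise by 1.54. Myh11, the smooth muscle myosin heavy chain, read 6.84, 6.81 and 7.195 in the control kidneys and 7.23, 7.18 and 7.38 in the congestive kidneys, with groups that overlapped, and its rise by 0.32 (adjusted p = 0.031) was lost with no pair block (adjusted p = 0.15) and without pairs 1 and 2. Of 17 mural cell genes 7 rose. Pdgfrb, the receptor that recruits pericytes, read 8.42, 8.56 and 8.20 in the control kidneys and 10.18, 10.24 and 9.73 in the congestive kidneys, and the rise of 1.66 ± 0.08 was close in size in all pairs. Angpt1, the ligand by which pericytes steady endothelium, rose by 1.82, and Gucy1a1, a subunit of the nitric oxide receptor, by 1.56. Rgs5 and Cspg4, both used to mark pericytes, did not pass. Rgs5 read 8.98, 9.17 and 9.11 in the control kidneys and 9.10, 9.20 and 8.93 in the congestive kidneys and Cspg4 7.31, 7.06 and 7.33 in the control kidneys and 7.08, 7.30 and 7.41 in the congestive kidneys, with groups that overlapped.

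Among 33 fibroblast and myofibroblast genes 21 rose and 2 fell. Pdgfra, a receptor of interstitial fibroblasts, read 9.01, 9.33 and 8.78 in the control kidneys and 11.12, 11.11 and 10.66 in the congestive kidneys, a rise by 1.92 ± 0.10. Tcf21 and Prrx1, transcription factors of mesenchymal cells, rose by 1.93 and 1.99, and Ncam1, a cell adhesion molecule, by 1.96. Loxl2, a collagen cross-linker, read 7.49, 7.75 and 6.88 in control and 9.75, 9.95 and 9.21 in congestive outer medulla, a rise by 2.26 ± 0.07 (adjusted p = 8.2e-06). Cthrc1, a secreted protein of matrix-making fibroblasts, rose by 2.21. Postn, periostin, read 4.66, 4.55 and 4.73 in control and 5.25, 5.38 and 4.81 in congestive outer medulla, and its rise by 0.50 (adjusted p = 0.039) was lost without pair 1 (adjusted p = 0.17) and without pair 2 (adjusted p = 0.22). The 2 falls of the fibroblast list were 1 without pair 1 and 1 without pair 2. Of 24 collagen chains 17 rose and 2 fell. The chains that fell were Col4a3, at 9.49, 9.51 and 9.06 in the control kidneys and 8.96, 8.62 and 8.33 in the congestive kidneys, and Col4a4, at 9.04, 9.07 and 8.71 in control and 8.65, 8.33 and 8.25 in congestive outer medulla, which belong to the mature network of glomerular and tubular basement membranes. Col3a1, a fibrillar chain, rose by 2.29. Of 15 laminins and other basement membrane genes 8 rose and 1 fell, with Lama2 up by 1.24.

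Genes of endothelial identity were called about as often as all genes. Of 32 such genes 4 rose (12.5%, against 11.8%) and 3 fell (9.38%, against 11.3%), with a median of 0.03. Without pair 2 there was 1 fall, and with no pair block 2 rose and 2 fell. Cdh5, the cadherin of endothelial junctions, read 8.88, 8.98 and 8.73 in the control kidneys and 9.33, 9.43 and 9.19 in the congestive kidneys, a rise by 0.46 ± 0.07 (adjusted p = 0.0024). Prox1, known from lymphatic endothelium and also made by tubule cells of the medulla, fell by 0.86, and Lyve1, shared by lymphatic endothelium and macrophages, rose by 0.96. Adhesion molecules that hold leukocytes rose in 7 of 15 with 0 falls. Vcam1, the ligand of lymphocyte and monocyte integrins, read 8.11, 8.18 and 7.83 in the control kidneys and 9.77, 10.10 and 9.35 in the congestive kidneys, a rise by 1.70 ± 0.09, or 3.26-fold. Icam1 rose 2-fold and Cd44, the hyaluronan receptor, 2.45-fold.

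Growth factors moved in both directions. Vegfa, the main factor of endothelial survival, read 10.23, 10.30 and 10.07 in the control kidneys and 9.61, 9.65 and 9.64 in the congestive kidneys and fell by 0.57 ± 0.08 (adjusted p = 0.0014). Vegfd, a ligand of lymphatic growth, read 6.22, 7.17 and 5.97 in control and 9.10, 8.53 and 8.30 in congestive outer medulla and rose by 2.19 ± 0.26. Fgf7, keratinocyte growth factor, which stromal cells send to epithelium, read 6.14, 6.51 and 5.80 in the control kidneys and 9.12, 8.79 and 7.89 in the congestive kidneys and rose by 2.45, or 5.47-fold. The groups were apart in all 3 genes. Hgf, hepatocyte growth factor, rose by 1.58, and Pdgfd, a ligand of the receptor Pdgfrb, by 1.11. Pdgfa, a ligand of the receptor Pdgfra, fell by 0.42 (adjusted p = 0.033), a call lost with no pair block (adjusted p = 0.054) and without pairs 1 and 3. Igf1, named after its values were seen, read 10.78, 10.59 and 10.40 in control and 9.92, 9.57 and 9.21 in congestive outer medulla and fell by 1.02 ± 0.08. Of 41 genes of prostaglandins and vasoactive peptides 13 rose (31.7%, against 11.8% of all genes) and 7 fell (17.1%, against 11.3%). Agtr1a, the angiotensin receptor that constricts vessels, read 8.91, 9.11 and 8.94 in the control kidneys and 10.48, 10.13 and 9.83 in the congestive kidneys, a rise by 1.16 ± 0.13. Adora2a, an adenosine receptor that relaxes vessels, rose by 0.97, and Ptgfr, the receptor of prostaglandin F, fell by 0.87. This list had 2 falls without pair 1 and 3 without pair 2.

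Most macrophage genes rose. Of 32 macrophage genes 29 rose (90.6%, against 11.8% of all genes) and 0 fell, with a median of 1.11. Cd68, a lysosomal protein of macrophages, read 7.09, 6.88 and 6.90 in the control kidneys and 9.17, 9.25 and 8.31 in the congestive kidneys, a rise by 1.96 ± 0.16 (adjusted p = 0.00013), smallest in pair 3. Csf1r, the receptor of their growth factor, read 8.61, 8.75 and 8.64 in control and 10.29, 10.33 and 9.998 in congestive outer medulla, a rise by 1.54, and Adgre1, the F4/80 antigen, read 6.91, 6.83 and 6.78 in control and 8.26, 7.91 and 8.26 in congestive outer medulla, a rise by 1.31. Both were even across the pairs. Folr2, a folate receptor of resident macrophages, rose by 1.77 and C1qb, a chain of complement C1q, by 1.75. Of 29 genes of T, B and NK cells 5 rose (17.2%, against 11.8% of all genes). Cd3e, a chain of the T cell receptor complex, read 5.27, 5.06 and 4.87 in the control kidneys and 5.15, 5.09 and 4.84 in the congestive kidneys, low in every array and with groups that overlapped. Cd4, which rat macrophages carry as well as T cells, read 9.36, 9.44 and 9.07 in the control kidneys and 11.25, 11.10 and 10.68 in the congestive kidneys, a rise by 1.72 ± 0.09, the largest of the 5. Of 20 genes of neutrophils and mast cells 1 rose (5.0%, against 11.8%). This was Csf3r, the receptor of granulocyte colony-stimulating factor, by 0.41, which missed the threshold without pair 2 (adjusted p = 0.06). S100a8, an abundant neutrophil protein, read 3.35, 3.37 and 3.12 in the control kidneys and 3.13, 2.90 and 3.13 in the congestive kidneys, at the dim end of the arrays. The T, B and NK list had 2 rises without pair 1 and 2 without pair 2.

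Some of the signals that call or arm leukocytes rose. Of 45 chemokines and their receptors 12 rose (26.7%, against 11.8% of all genes) and 2 fell (4.44%, against 11.3%). Ccl6, a chemokine of macrophages, read 7.73, 7.66 and 7.97 in the control kidneys and 10.11, 9.57 and 9.97 in the congestive kidneys, a rise by 2.10 ± 0.12, or 4.28-fold. Cxcl9, induced by interferon gamma, rose by 1.51, Pf4, platelet factor 4, by 1.45, and Csf1, the ligand of Csf1r, by 1.23. Ccl2, the monocyte chemokine, read 7.75, 6.88 and 7.61 in the control kidneys and 7.998, 8.44 and 7.76 in the congestive kidneys, and its difference of 0.65 did not pass (adjusted p = 0.11). Of 29 complement genes 17 rose and 3 fell, among them C7, of the membrane attack complex, at 9.59, 9.43 and 9.51 in control and 11.19, 11.69 and 11.35 in congestive outer medulla, a rise by 1.90. The falls were 1 without pair 1 and 1 without pair 2. Of 31 interferon response genes 20 rose and 0 fell, by a median of 0.38. Ifi27 rose by 1.17 and Mx1 by 0.75, while Isg15 read 5.68, 5.54 and 5.49 in the control kidneys and 5.70, 5.89 and 5.46 in the congestive kidneys with groups that overlapped. Without pair 2 the interferon count was 13. Of 19 antigen presentation genes 8 rose (42.1%, against 11.8%). Cd74, the invariant chain of class II molecules, read 12.05, 11.99 and 12.04 in the control kidneys and 12.08, 11.98 and 12.18 in the congestive kidneys, high in every array and with groups that overlapped. This list had 3 rises without pair 1 and 2 without pair 2.

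**Figure D4:**
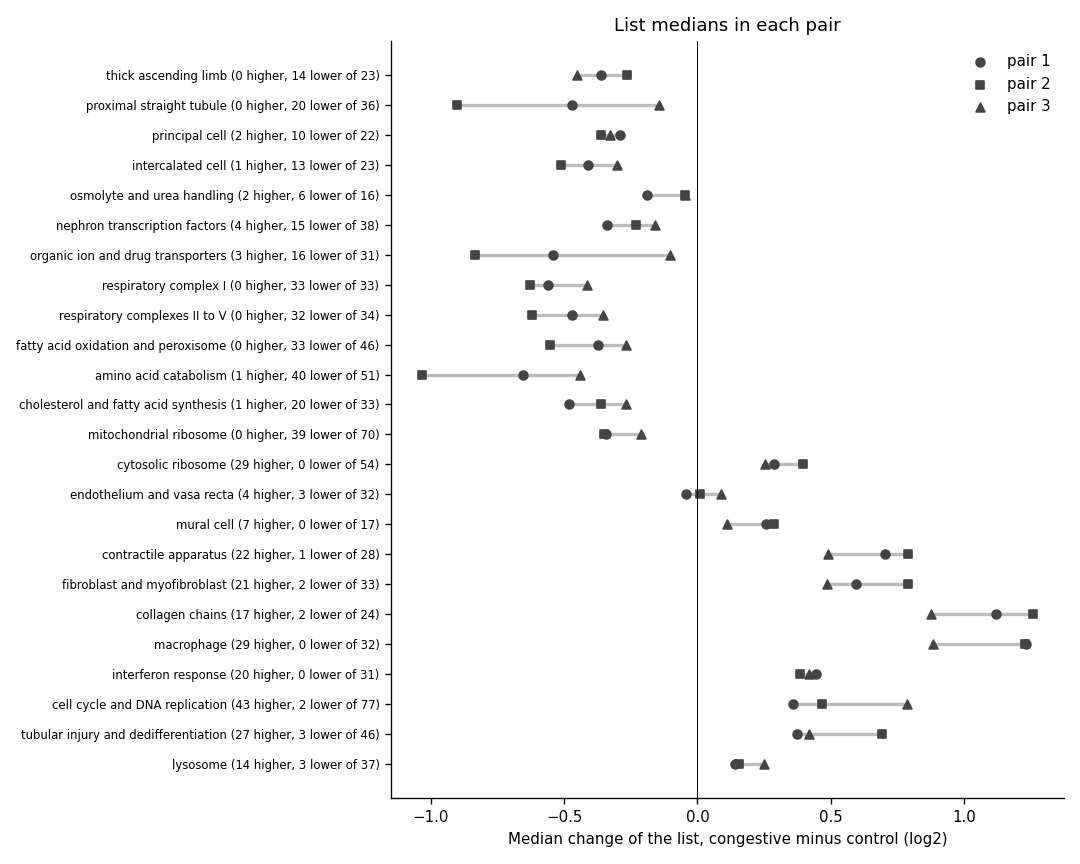
Median change of 24 gene lists (congestive minus control, log2, horizontal axis) in each of the 3 pairs (symbols), with the numbers of measured genes called higher and lower beside the name. The 3 pairs have the same sign in every list shown except endothelium; proximal straight tubule genes range from -0.14 in pair 3 to -0.90 in pair 2, and macrophage genes from 0.88 to 1.23.

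Genes of dividing cells rose. Of 77 genes of the cell cycle and DNA replication 43 rose and 2 fell, with a median of 0.58 and pair medians of 0.36, 0.47 and 0.79. Mki67, the Ki-67 antigen of cycling cells, read 8.68, 9.27 and 7.94 in the control kidneys and 9.73, 10.31 and 9.77 in the congestive kidneys, a rise by 1.31 ± 0.20 (adjusted p = 0.0026). Top2a, the topoisomerase of mitosis, read 7.72, 8.15 and 6.89 in control and 8.58, 8.96 and 8.56 in congestive outer medulla, a rise by 1.12. In both, control kidney 3 was the lowest of all, and pair 3 had the largest difference. Ccnb2, a cyclin of mitosis chosen for its promoter, read 8.75, 8.95 and 8.75 in the control kidneys and 9.54, 9.53 and 9.46 in the congestive kidneys, an even rise by 0.69 ± 0.08. The dimmer row of Ccnb2 on the array had a change of 1.03. Bub1, a kinase of the spindle checkpoint, rose by 1.26. Melk, a kinase that is often listed with mitotic genes, was 1 of the 2 that fell, by 0.85. There were 27 rises without pair 1, 20 without pair 2 and 15 without pair 3. Cdkn1c, the p57 inhibitor that holds cells out of the cycle, read 7.25, 7.58 and 7.03 in control and 9.26, 9.75 and 8.55 in congestive outer medulla and rose by 1.90 ± 0.12 (adjusted p = 4.8e-05), while Cdkn1a, the p21 inhibitor, read 5.63, 5.86 and 5.38 in the control kidneys and 5.94, 6.11 and 5.68 in the congestive kidneys and did not pass. Ccnd1, a cyclin of the first growth phase, fell by 0.59.

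Promoters of mitotic genes are known for a pair of elements, CCAAT boxes bound by the NF-Y complex and the cell cycle homology region TTTGAA bound by the DREAM and MuvB complexes. In the 250 bases before the start, on either strand, CCAAT was in 41 of 63 cell cycle genes with a promoter entry (65.1%). The share was 36.1% of all 27457 genes with an entry, measured here or not. TTTGAA was in 16 of the 63 (25.4%) against 17.2%, and both were in 13 (20.6%) against 6.32%. These 2 are shown because they hold both elements, each in capitals on either strand, at chr10:84473094-84473343 (minus strand) for Top2a and chr8:79981659-79981908 (minus strand) for Ccnb2, in GRCr8:
Top2a: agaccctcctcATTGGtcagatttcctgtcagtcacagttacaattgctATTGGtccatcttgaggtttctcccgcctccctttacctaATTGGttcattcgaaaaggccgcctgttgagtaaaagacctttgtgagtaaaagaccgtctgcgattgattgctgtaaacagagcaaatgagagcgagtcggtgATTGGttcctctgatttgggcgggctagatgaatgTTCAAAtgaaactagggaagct
Ccnb2: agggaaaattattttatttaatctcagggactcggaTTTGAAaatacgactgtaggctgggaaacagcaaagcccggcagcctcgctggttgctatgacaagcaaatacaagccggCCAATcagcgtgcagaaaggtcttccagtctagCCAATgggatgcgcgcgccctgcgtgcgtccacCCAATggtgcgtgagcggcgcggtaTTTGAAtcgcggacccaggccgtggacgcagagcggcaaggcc
Top2a holds 4 CCAAT boxes and 1 TTTGAA, and Ccnb2 holds 3 and 2.

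Many genes of tubular injury rose, while antioxidant genes moved both ways. Of 46 genes of tubular injury and dedifferentiation 27 rose and 3 fell. Clu, clusterin, a secreted chaperone, read 10.41, 10.46 and 10.29 in the control kidneys and 12.77, 12.65 and 12.77 in the congestive kidneys, a rise by 2.34 ± 0.08 (adjusted p = 8.2e-06) at nearly the same level in each congestive kidney. Timp1, an inhibitor of matrix proteases, rose by 2.43, Cp, ceruloplasmin, by 1.97, and Fgb, a chain of fibrinogen, by 2.08. Lcn2, lipocalin 2, a urinary marker of acute injury, read 5.55, 5.53 and 5.92 in the control kidneys and 5.90, 6.61 and 5.96 in the congestive kidneys, with congestive kidney 2 high and the others close to the highest control, and it did not pass (adjusted p = 0.12). Of 32 NFE2L2 and antioxidant genes 11 fell (34.4%, against 11.3% of all genes) and 4 rose (12.5%, against 11.8%). Osgin1 read 11.08, 10.79 and 10.94 in the control kidneys and 9.94, 8.97 and 9.87 in the congestive kidneys, a fall by 1.34 ± 0.14, and Nqo1, a quinone reductase and standard target of the factor, fell by 0.72. Hmox1, heme oxygenase 1, read 6.14, 6.14 and 5.40 in control and 7.26, 7.63 and 7.06 in congestive outer medulla and rose by 1.43 ± 0.16, and Gpx2 rose by 1.32. There were 5 falls without pair 1 and 5 without pair 2.

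Targets of the hypoxia-inducible factors had no shared direction. Among 37 there were 9 rises (24.3%, against 11.8% of all genes) and 6 falls (16.2%, against 11.3%), with a median of -0.03. Tfrc, the transferrin receptor, read 8.90, 8.96 and 8.71 in the control kidneys and 7.63, 7.91 and 8.11 in the congestive kidneys and fell by 0.97 ± 0.13. Vegfa, given above with the growth factors, is also in this list and fell by 0.57. The largest rises of this list were Lox, Loxl2 and Hmox1, of which Loxl2 is also in the fibroblast list and Hmox1 in the antioxidant list. Without pair 1 or without pair 2 there were 5 rises and 3 falls. In the unfolded protein response 6 of 39 genes rose (15.4%, against 11.8% of all genes) and 2 fell (5.13%, against 11.3%), with a median of 0.00. Hspa5, its main chaperone, read 11.15, 11.05 and 11.13 in the control kidneys and 10.998, 11.22 and 11.27 in the congestive kidneys, and Ddit3, its death-linked factor, read 7.24, 7.37 and 7.36 in the control kidneys and 7.25, 7.14 and 7.17 in the congestive kidneys, both with groups that overlapped. The count of rises there was 1 without each of the 3 pairs, and 5 genes fell with no pair block in the model. Of 37 lysosomal genes 14 rose and 3 fell, led by Cd68 and by Ctsk, cathepsin K, at 6.76, 6.83 and 6.71 in control and 8.41, 8.40 and 8.18 in congestive outer medulla, a rise by 1.56. The falls were 0 without pair 1 and 0 without pair 2. Of 24 immediate early genes 7 rose (29.2%, against 11.8%). Ier3 read 7.24, 7.45 and 7.43 in control and 8.26, 8.65 and 8.56 in congestive outer medulla, a rise by 1.12. Fos read 6.37, 7.37 and 6.54 in the control kidneys and 6.81, 7.09 and 7.01 in the congestive kidneys and did not pass. There were 4 such rises without pair 1 and 4 without pair 2.

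Circadian genes set pair 3 apart from the others in both kidneys. Bmal1, a core activator of the clock, read 8.61, 8.65 and 6.13 in the control kidneys and 8.69, 8.53 and 6.82 in the congestive kidneys, low in both kidneys of pair 3 and high in the rest. Dbp, an output gene of opposite phase, read 9.88, 9.91 and 11.43 in control and 9.57, 9.24 and 10.998 in congestive outer medulla, highest in pair 3. Of 16 clock genes 4 fell (25.0%, against 11.3% of all genes) and 1 rose (6.25%, against 11.8%) in congestive kidneys. With no pair block 0 fell and 0 rose, and the rise was lost without each pair. Tef, a relative of Dbp, read 7.84, 7.82 and 8.75 in the control kidneys and 7.09, 6.50 and 8.30 in the congestive kidneys, a fall by 0.84 ± 0.14 within pairs (adjusted p = 0.0046), although the groups overlapped. With no pair block in the model the changes of Tef and Dbp did not pass (adjusted p = 0.2 and 0.67).

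The change in outer medulla was set against the change in cortex in the same model. This separated 294 genes (1.62%), 146 (0.804%) with the higher change in outer medulla and 148 (0.815%) with the lower. The model held a term for each pair within a region. It did not match numbers across the regions and took their changes as independent. Among genes called in outer medulla, of the 5 with the largest difference upward 4 rose in outer medulla while their change in cortex lay between -0.16 and 0.23. Syt10 changed by -0.14 in cortex against 2.54 in outer medulla (difference 2.68 ± 0.19, adjusted p = 0.0048). Guca2a, guanylin, a peptide that drives salt excretion, read 7.56, 6.89 and 7.75 in the control kidneys and 9.44, 10.07 and 9.55 in the congestive kidneys in outer medulla, a rise of 2.29 against -0.05 in cortex (difference 2.34 ± 0.35). Fgf7 differed by 2.22 and Adamts17, a secreted protease of the matrix, by 2.18. Ptgs2, the inducible cyclooxygenase, read 6.80, 7.55 and 7.41 in control and 7.64, 7.73 and 7.99 in congestive outer medulla. It rose by 0.53 in outer medulla (adjusted p = 0.038) and changed by -1.64 in cortex, a difference of 2.18 ± 0.21. The rise in outer medulla was lost without pair 1 (adjusted p = 0.21), without pair 3 (adjusted p = 0.12) and with no pair block (adjusted p = 0.13). At the other end Slc22a13 fell in outer medulla and changed by 0.29 in cortex, a difference of -2.10. Cyp1a1, Grpr and Anxa13 had differences of -1.99, -1.85 and -1.81, with changes in cortex of -0.10, -0.23 and -0.24. Spp1, osteopontin, rose in both regions, by 1.10 in outer medulla and by 2.97 in cortex, from control levels that were already high at 11.46 to 11.90 in outer medulla. The number of such genes depended on the replicates: with pair 1 left out of both regions it was 0, with pair 2 left out 9 and with pair 3 left out 43.

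**Figure D5:**
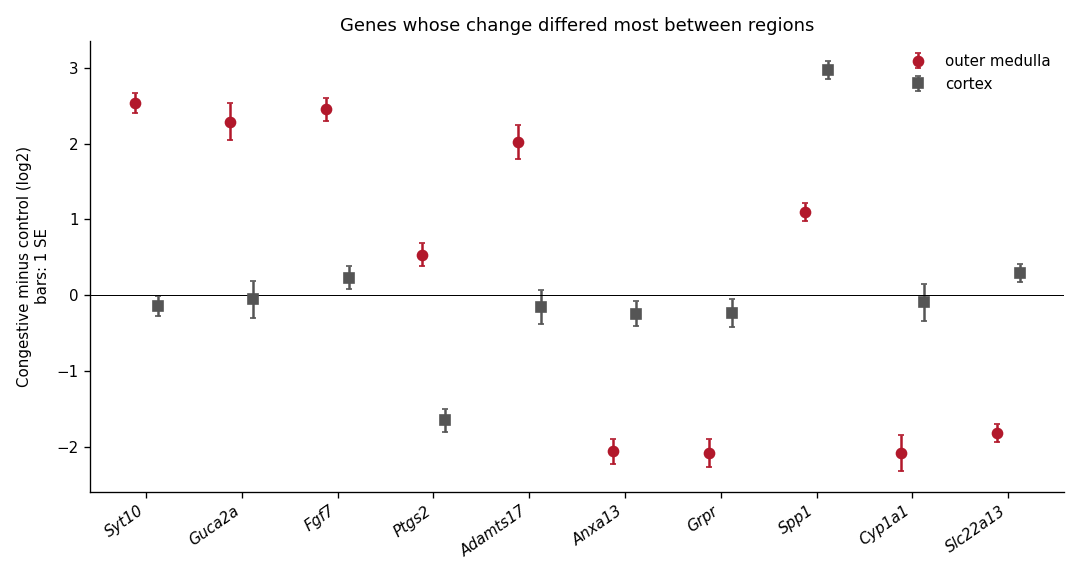
Change in outer medulla and in cortex (congestive minus control, log2, vertical axis, with bars of 1 SE) of the 10 genes called in outer medulla with the largest tested differences between regions, 5 in each direction. Syt10, Guca2a, Fgf7, Adamts17 and Ptgs2 lie higher in outer medulla, and Slc22a13, Cyp1a1, Spp1, Grpr and Anxa13 lie higher in cortex.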

How the data were processed

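RNA of 12 tissue samples was hybridised to 1-colour Affymetrix GeneChip Rat Gene 2.0 ST arrays, and the 6 arrays of outer medulla are described. The deposited log2 values came from Affymetrix Expression Console, in which the authors normalized the arrays to one another. Its version, its way of summarizing probes and the base of the logarithm remained unknown (not given in the sources used here), so values were taken as log2 from their range. Background and dim spots could not be assessed, and the number of arrays limits the precision. Of 36685 rows 18511 have 1 gene symbol, 575 several and 17599 none in the platform annotation. For 291 genes with several rows the row with the highest mean was kept, which left 18166 genes, of which 18059 matched a RefSeq gene. Ndufv3 has 2 rows, whose changes were -1.005 and -0.207, and Ccnb2 has 2, whose changes were 0.694 and 1.03.

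A model over all 12 arrays with a term for each pair within a region was fitted with limma 3.58.1 (R 4.3.3), and p-values were adjusted over all genes by Benjamini-Hochberg. The residual degrees of freedom were 4, with 3.96 from the prior. Same-numbered arrays deviated together in outer medulla (r = 0.169, 0.250 and 0.207 across genes for pairs 1, 2 and 3). The sources do not tie each number to 1 rat, so p-values measure the spread between these samples. An exact permutation test of 3 against 3 cannot go below 0.1 and was not used. The fit was also run on simulated data with independent noise and the same pair terms. That run cannot test the pairing or the use of 1 spread for both regions.

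The members and the gene lists were chosen with earlier results of these data known. The rule for names took the 12 largest rises and falls among called genes with the same sign in all 3 pairs. In each list it took up to 5 called members with the largest change and up to 2 that moved against the rest. The first 3 of each list as written were added, and, upward and downward, the 5 genes that differed most between regions. This gave 355 genes in all. The text gives 166 of them, chosen with their values and their behaviour under the alternatives known, so it holds fewer unstable calls than the rule does. Slc5a2, Slc5a12, Slc12a3, Ndufs6, Ccnb2 and Igf1 were named after their values were seen. Promoters are the 250 bases before each RefSeq start in GRCr8.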

Additional observations from a re-analysis of the deposited data

Results flagged for a closer look

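The change in outer medulla differed from that in cortex, by the interaction term of limma across all genes, in 41 of the genes named above. In place of 294 genes over the whole array, 0 were called without pair 1, 9 without pair 2 and 43 without pair 3. The values below are the change in outer medulla minus that in cortex on the log2 scale.

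The change was higher in outer medulla for the following genes, with Ms4a4a at 1.13, Mrc1 at 0.88, Pf4 at 1.35 and C7 at 0.91. The difference was 1.79 for Ccdc80, 1.03 for Col1a1, 1.49 for Cthrc1, 1.05 for Loxl2, 0.75 for Pdgfra, 0.91 for Tcf21, 1.67 for Angpt1, 1.05 for Vcam1, 2.22 for Fgf7, 2.18 for Adamts17 and 2.14 for A2m. It was 2.68 for Syt10, 2.34 for Guca2a, 2.18 for Ptgs2, 1.59 for Gabrp, 1.77 for Apobec1, 1.90 for Cdkn1c, 1.11 for Maf, 0.72 for Ier3 and 1.15 for Umod, which fell less in outer medulla than in cortex.

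The change was lower in outer medulla for the following genes. The difference was -2.10 for Slc22a13, -1.99 for Cyp1a1, -1.54 for Gc, -1.81 for Anxa13, -1.76 for Pkd2l2, -1.05 for Azgp1, -1.01 for Abcb1a, -0.82 for Fxyd4, -1.09 for Arg2, -0.96 for Hnf4g, -0.72 for Bdh1 and -0.75 for Nqo1. It was -1.85 for Grpr, -1.31 for Or4d10, -1.66 for Igf1, -1.57 for Melk and -1.87 for Spp1, which rose more in cortex.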

How the results depend on the processing

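With 3 kidneys a group, the counts changed with the pair that was left out. Without 1 pair there were 2267 to 3938 calls, 1297 to 1794 rises and 970 to 2144 falls. A threshold of 1.5-fold in addition left 1688 genes (1024 higher, 664 lower). An unpaired t-test with equal variances on the outer medulla arrays called 1040 after Benjamini-Hochberg (666 higher, 374 lower). At an unadjusted p under 0.05 it called 4899. The methods name a t-test for comparisons of 2 groups, but do not name the test used on the arrays. With no replicate block 4055 genes were called, and with the block in outer medulla arrays alone 3384. Centring each array on its median gave 1827 rises and 2218 falls, a share of rises of 45.2% in place of 51.1%. Quantile normalization, the trend option, the filter on dim genes, the use of all rows and a block by number across regions gave 4281 to 4864 calls. The contrast of the regions was less stable: 294 genes fell to 149 with no replicate block and to 0 to 43 when 1 pair was left out.

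The naming rule selected 355 genes, 298 of them called, and 75 of the 298 lost their call in at least 1 alternative, 29 of them with no replicate block. The text gives 166 of the 355 and leans to calls that held: 147 of these were called and 9 lost the call somewhere (Slc22a6, Aqp2, Ptgs2, Csf3r, Tef, Dbp, Myh11, Postn and Pdgfa), against 66 of 151 called genes left out of it. With no replicate block the calls of Aqp2, Ptgs2, Tef, Dbp, Myh11 and Pdgfa were lost and no other call of a gene given in the text. In the genes of the text the sign changed only where no threshold had been passed. When 1 pair was left out the change ran from -0.921 to 0.101 for Slc12a3, from -0.867 to 0.0045 for Slc5a2, from -0.0736 to 0.0800 for Rgs5, from -0.0745 to 0.161 for Cspg4, from -0.0743 to 0.00091 for Cd3e, from -0.0090 to 0.185 for Isg15, from -0.0098 to 0.153 for Hspa5 and from -0.0206 to 0.386 for Bmal1. Quantile normalization turned Rgs5 (0.0077), Cspg4 (-0.0060) and Cd74 (-0.0010), and centring turned Cspg4 (-0.0022). The unfolded protein response had 2 rises in place of 6 after centring. The cause of these shifts was not tested.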

Other observations

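The clock genes set pair 3 apart in cortex as well. Bmal1 read 8.73, 8.50 and 6.36 in control cortex and 8.65, 8.47 and 6.94 in congestive cortex, and Dbp read 9.79, 9.80 and 11.38 in control cortex and 9.50, 9.40 and 11.02 in congestive cortex. Both kidneys and both regions of pair 3 therefore had less Bmal1 and more Dbp than pairs 1 and 2. The sources used here give no hour of tissue collection.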
